A study of Danio rerio with 6 samples.

Results

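The embryonic globin genes *hbbe1.1*, *hbbe1.2*, *hbbe2*, *hbae1* and si:ch211-5k11.12 were followed in RNA-seq of whole zebrafish larvae at 4 dpf. Each of the 5 names was looked up in the authors' deposited tables of transcripts changed in *flt1* mutants, and the 1 Ensembl transcript listed for each was then read in the deposited count table, which holds 54869 transcripts. The genotype difference itself brought these transcripts into the lists, so their differences between WT and mutants are given as descriptions, without a test. The study compared 3 WT samples with 3 samples homozygous for *flt1*ka601, an allele made with CRISPR/Cas in *flt1*, which encodes a receptor for Vegf ligands, and meant to remove both the membrane-bound and the soluble form of the protein. WT larvae are labelled as the AB strain with Tg(kdrl:eGFP)s843, and mutants as flt1ka601 (flt1-/-) with the same transgene, a green fluorescent reporter driven by the endothelial *kdrl* promoter. The labels name no background strain for the mutants, so that strain and genotype cannot be told apart. The files do not say which transcripts belong to *flt1*, and its own level was not analysed here. The number of larvae in a sample is not given in the sources used here.

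Haemoglobin carries oxygen in red blood cells and is built from a pair of alpha and a pair of beta globin chains, each holding a haem group. The first red cells of a vertebrate embryo, the primitive erythrocytes, use embryonic alpha and beta chains, and adult chains replace them as later waves of red cells take over. In zebrafish, genes for alpha and beta chains alternate along the chromosome, and a pair of separate clusters carries them.

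By name, 4 of the 5 transcripts belong to beta chains and 1, *hbae1*, to an alpha chain. All 5 names matched a symbol or synonym in RefSeq (assembly GRCz12tu), which lists si:ch211-5k11.12 as an older name of *hbbe1.3* and *hbae1* as an older name of *hbae1.1*. The clone-named transcript is a further copy of the *hbbe1* type, and all 5 fit the description of embryonic globins. In that assembly, 17 genes carry a globin symbol or synonym of the alpha or beta kind, 13 in the cluster of *hbbe1.1* and 4 in that of *hbbe2*. In the larger cluster *hbbe1.1*, *hbae1.1*, *hbbe1.2*, *hbae1.2*, *hbbe1.3* and *hbae1.3* follow each other in this order, and 4 of the 5 followed genes are among them. The gene *hbbe2* lies in the other cluster, between *hbbe3* and *hbae5*. The transcripts were ENSDART00000121686 (*hbbe1.1*), ENSDART00000128380 (*hbbe1.2*), ENSDART00000111585 (si:ch211-5k11.12), ENSDART00000066384 (*hbbe2*) and ENSDART00000125092 (*hbae1*). The authors' deposited DESeq table lists all 5, and their deposited Cuffdiff table lists 1, *hbbe2*. The adult globins *hbaa1*, *hbaa2*, *hbba1* and *hbba2* were not found under these symbols in the deposited tables and were not analysed here. The same holds for *hbbe3*, *hbae3*, *hbae4* and *hbae5*, which are not listed under these names.

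Between 10792845 and 14936523 reads were counted on transcripts in WT samples and between 10655504 and 13358468 in mutants. Reads that overlapped several transcripts at 1 position entered no count, and these ambiguous reads made up 36.5% to 42.1% of counted and ambiguous reads together. Reads that aligned to several positions, as a read that is identical in 2 gene copies would, entered no count either. HTSeq gives 30406517 to 39159982 such alignments in 5 samples and 52587271 in WT replicate 1, more than the counted reads in every sample, and how many of them lie on globin genes is not recorded. The copies *hbbe1.1*, *hbbe1.2* and *hbbe1.3* are named as copies of one gene type, so the counts here are the reads that could be assigned to 1 copy only and are not the whole output of each gene. WT replicate 1 differed from the others in library make-up. Its 5 most counted transcripts took 36.9% of its counts, against 27.0% to 28.8% in the other 5 samples.

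The transcript of *hbbe1.1* held the most reads of the 5 in every sample. Its reads numbered 3007, 2517 and 2215 in WT and 10149, 7238 and 5366 in mutants. In CPM, which are counts scaled by TMM for library size and composition and set to a total of 1000000, this was 231, 220.5 and 209.5 in WT and 726, 651 and 467 in mutants. The lowest mutant stood 2.02-fold above the highest WT sample, and the WT samples lay close together. The mean was 220.4 ± 10.8 CPM in WT and 615 ± 133 in mutants (SD, n = 3 each), and the log2 fold change was 1.48. In whole larvae, more red cells and more globin RNA per red cell cannot be told apart.

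The second copy, *hbbe1.2*, showed the largest fold difference of the 5. In WT it had 285, 173 and 175 reads, against 1839, 1129 and 1056 in mutants, or 21.9, 15.2 and 16.6 CPM against 132, 102 and 92.0. The genotypes did not overlap, and the lowest mutant was 4.198-fold above the highest WT sample. The means were 17.9 ± 3.57 and 108 ± 20.7 CPM (SD, n = 3 each), and the fold change was 2.60 on the log2 scale.

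The clone-named transcript si:ch211-5k11.12, RefSeq's *hbbe1.3*, was next in fold. Its 390, 235 and 221 reads in WT became 30.0, 20.6 and 20.9 CPM. In the mutants its 1724, 1417 and 1320 reads became 123, 127.5 and 115 CPM. The mutants were nearly level with each other, while WT replicate 1 stood above the other WT samples, and the lowest mutant was 3.83-fold above the highest WT sample. The means were 23.8 ± 5.34 and 122 ± 6.38 CPM (SD, n = 3 each), and the fold change was 2.35 on the log2 scale.

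The beta chain gene of the other cluster, *hbbe2*, had 288, 132 and 240 reads in WT and 1372, 918 and 744 in mutants. These counts corresponded to 22.1, 11.6 and 22.7 CPM in WT and 98.2, 82.6 and 64.8 in mutants. WT replicate 2 was low, with the other WT samples up to 1.96-fold above it, and every mutant was above every WT sample. The means were 18.8 ± 6.28 and 81.9 ± 16.7 CPM (SD, n = 3 each), and the fold change was 2.12 on the log2 scale. In the authors' deposited Cuffdiff table, which assigns reads in another way and divides by transcript length, the authors' value for *hbbe2* was 28.0 FPKM in WT and 133 FPKM in mutants.

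The alpha chain gene *hbae1* had the fewest reads, 52, 38 and 53 in WT and 282, 210 and 147 in mutants. It was at 4.00, 3.33 and 5.01 CPM in WT and at 20.2, 18.9 and 12.8 CPM in mutants. The genotypes did not overlap, with the lowest mutant 2.55-fold above the highest WT sample. The means were 4.11 ± 0.848 and 17.3 ± 3.94 CPM (SD, n = 3 each), and the fold change was 2.08 on the log2 scale.

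**Figure D1:**
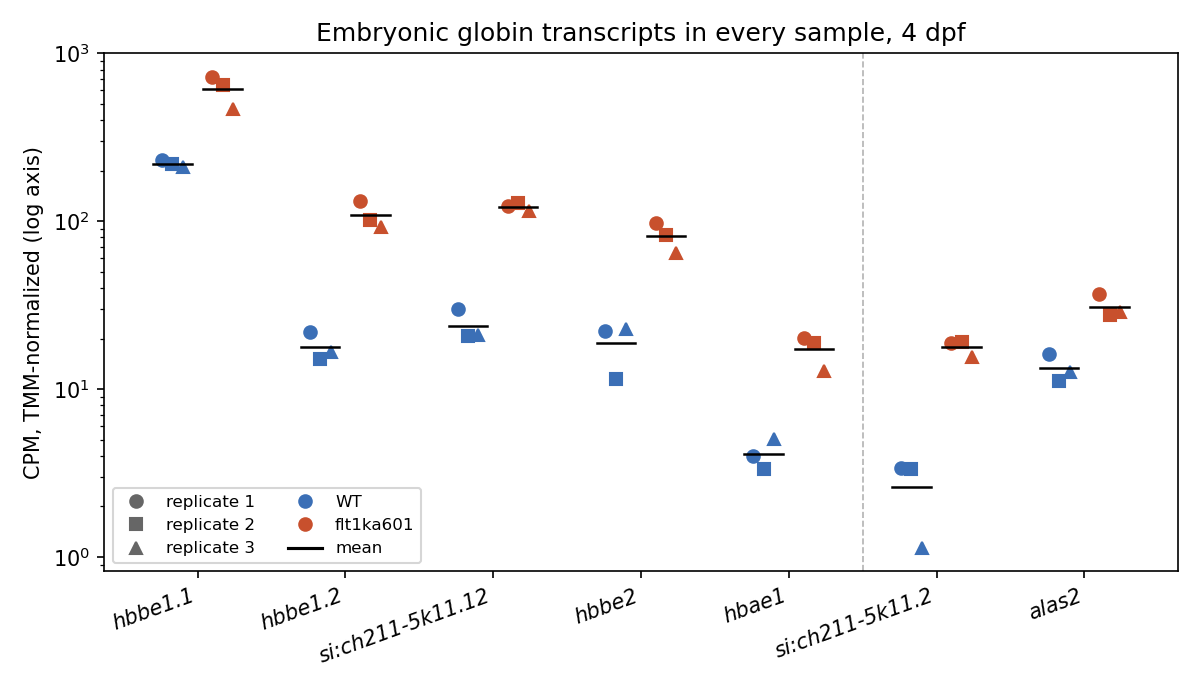
TMM-normalized CPM on a log axis for the 5 embryonic globin transcripts and, right of the dashed line, si:ch211-5k11.2 and *alas2*, in 3 WT (blue) and 3 flt1ka601 samples (red), with marker shapes for replicate numbers and black lines for means. Every mutant sample lies above every WT sample for each of the 7 transcripts, as for 16.8% of the 21029 tested. The same contrast brought all 7 into the lists, so nothing is read from this. The values of *hbbe1.1* run from 209.5 CPM in the lowest WT sample to 726 in the highest mutant.

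All 5 transcripts had every mutant sample above every WT sample, as did 16.8% of the 21029 transcripts tested. This count describes the same contrast that brought the transcripts into the lists, so nothing further is read from it. The median log2 fold change of the 5 was 2.12, beside a median of -0.0051 over all tested transcripts. In the 6 fits that each dropped 1 sample, the log2 fold change of a transcript ran between 1.34 and 1.64 for *hbbe1.1*, 2.43 and 2.77 for *hbbe1.2*, 2.25 and 2.55 for si:ch211-5k11.12, 1.86 and 2.27 for *hbbe2*, and 1.95 and 2.25 for *hbae1*. The range of *hbbe1.1* did not meet that of any of the other 4. These fits share most of their samples, so the ranges show dependence on single samples and are not confidence intervals.

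**Figure D2:**
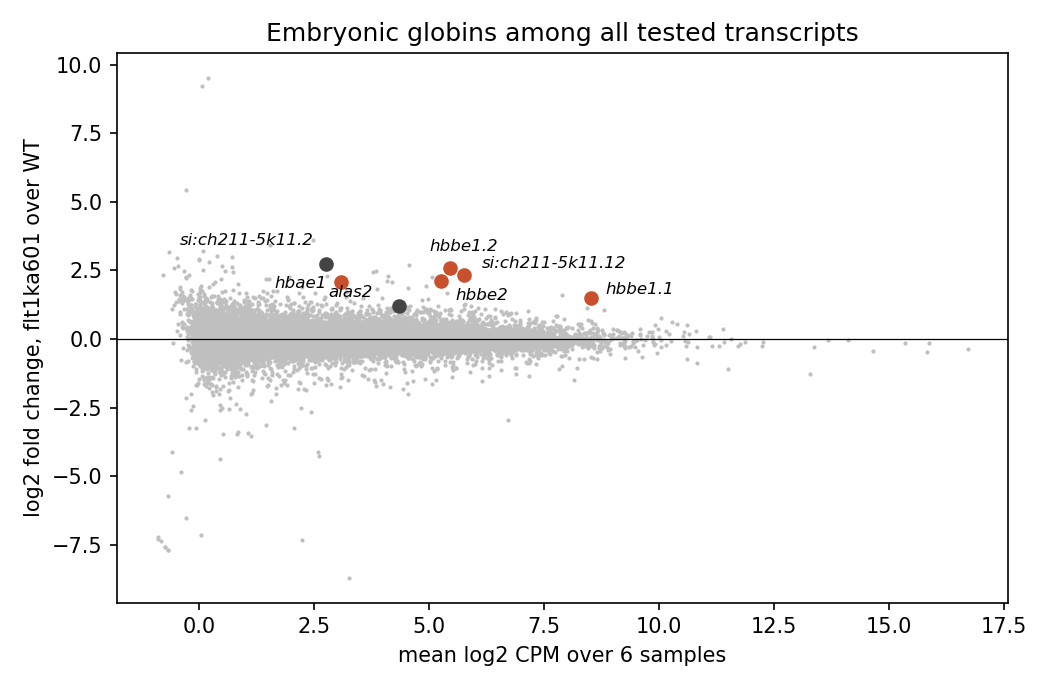
Log2 fold change of flt1ka601 over WT against the mean log2 CPM of the 6 samples, with a grey point for each of the 21029 tested transcripts, red points for the 5 embryonic globins and dark points for si:ch211-5k11.2 and *alas2*. The 5 globins lie between 1.48 for *hbbe1.1* and 2.60 for *hbbe1.2*, above the bulk of transcripts around 0.

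The reads on the 5 transcripts were then summed for each sample and divided by all counted reads. This gives the share of these 5 transcripts and not of all embryonic globins. Reads shared between copies and reads on other embryonic globins, such as si:ch211-5k11.2, are not in the sum. The sum was 4022, 3095 and 2904 reads in WT and 15366, 10912 and 8633 in mutants. In WT this was 0.0269% of counted reads in replicate 1 (95% Wilson interval 0.0261% to 0.0278%), 0.0276% in replicate 2 (0.0266% to 0.0286%) and 0.0269% in replicate 3 (0.0260% to 0.0279%). With all counted reads as the denominator, the WT shares agree within their counting intervals. In the mutants it was 0.115% in replicate 1 (0.113% to 0.117%), 0.102% in replicate 2 (0.101% to 0.104%) and 0.0777% in replicate 3 (0.0761% to 0.0794%). The mutants differed from each other by more than counting error, and all were above WT. These intervals cover counting error only.

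The mean share was 0.0271 ± 0.000387% in WT and 0.0984 ± 0.0190% in mutants (SD, n = 3 each), a ratio of 3.62. Put otherwise, 1 counted read in 3625 to 3717 fell on these transcripts in WT and 1 in 869 to 1287 in mutants. After TMM scaling, the summed level was 309, 271 and 275 CPM in WT and 1100, 982 and 752 CPM in mutants. The scaling set WT replicate 1 above the other WT samples, which the plain shares did not do. Its TMM factor of 0.874 was the lowest of the 6 (the others were 0.983 to 1.05). WT replicate 1 was also highest without TMM when the 5 most counted transcripts of each sample were left out of the denominator. The shares were then 0.0427%, 0.0384% and 0.0378% in WT replicates 1, 2 and 3. The gap between the genotypes was wider than the difference between scalings, with a ratio of mean summed CPM of 3.31.

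**Figure D3:**
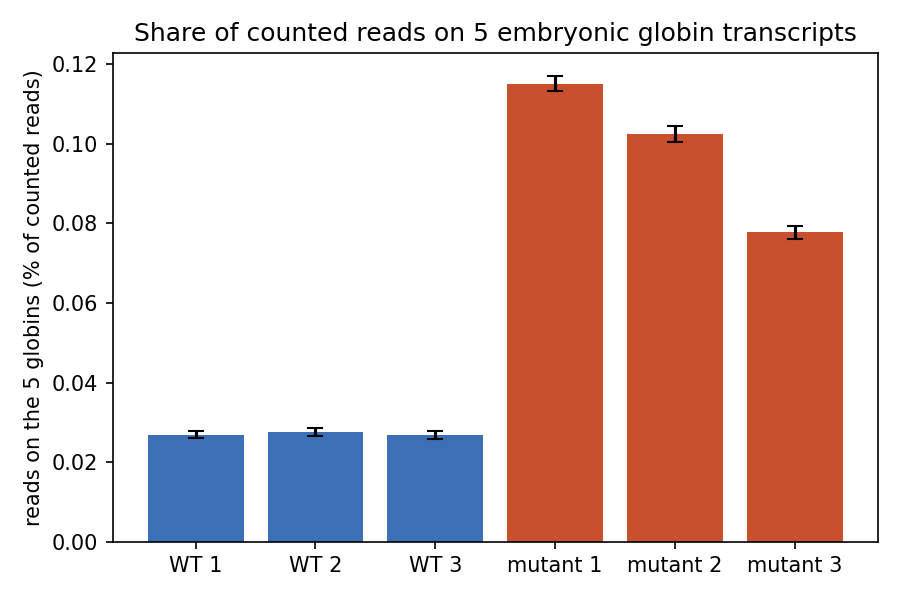
Reads on the 5 embryonic globin transcripts as a percent of all counted reads in each sample, with 95% Wilson intervals. The WT bars stand at 0.0269% to 0.0276%, and the mutant bars at 0.115%, 0.102% and 0.0777%.

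Most of the added globin reads came from *hbbe1.1*, although its fold difference was the smallest. From the WT to the mutant mean, the 5 transcripts gained 659.5 CPM in all, of which *hbbe1.1* gave 394.6 CPM (59.8%), si:ch211-5k11.12 gave 98.1 (14.9%), *hbbe1.2* gave 90.5 (13.7%), *hbbe2* gave 63.1 (9.56%) and *hbae1* gave 13.2 (1.999%). The make-up of the assigned globin reads differed between the genotypes, as the unequal fold differences require. *hbbe1.1* took 74.8%, 81.3% and 76.3% of the reads on the 5 transcripts in WT and 66.0%, 66.3% and 62.2% in mutants. The genotypes did not overlap, and the means were 77.5 ± 3.44% and 64.9 ± 2.33% (SD, n = 3 each). The share of *hbbe1.2* was 7.09%, 5.59% and 6.03% in WT and 12.0%, 10.4% and 12.2% in mutants, again without overlap. The share of si:ch211-5k11.12 was 9.70%, 7.59% and 7.61% in WT and 11.22%, 12.99% and 15.3% in mutants. That of *hbbe2* was 7.16%, 4.27% and 8.26% in WT and 8.93%, 8.41% and 8.62% in mutants, where the highest WT and the lowest mutant value lay close together.

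**Figure D4:**
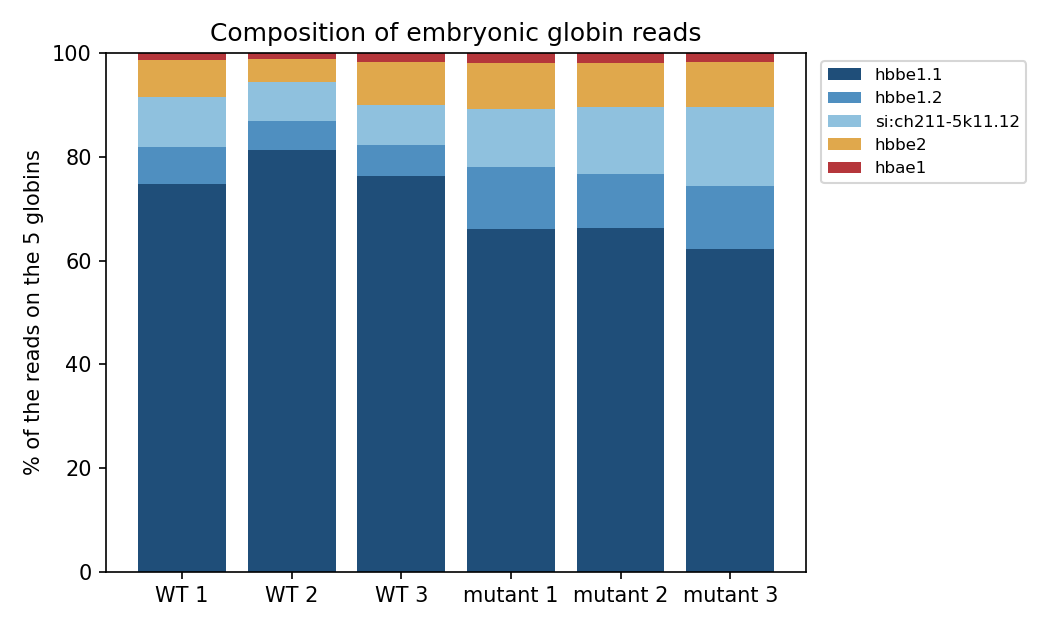
Share of each transcript in the reads on the 5 embryonic globins, one stacked bar per sample adding to 100%. The dark segment, *hbbe1.1*, covers 74.8% to 81.3% of the bar in WT and 62.2% to 66.3% in mutants.

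Setting each transcript against *hbbe1.1* of the same sample removes the library size and the scaling from the comparison, and transcript length cancels between samples. Reads shared between copies stay uncounted. Whether the same part of each copy's reads could be assigned in both genotypes, whose strain may differ, was not tested. For every 100 reads on *hbbe1.1*, *hbbe1.2* had 9.48, 6.87 and 7.90 in WT and 18.1, 15.6 and 19.7 in mutants. Its mean ratio was 8.08 ± 1.31 in WT and 17.8 ± 2.06 in mutants (SD, n = 3 each). For si:ch211-5k11.12 the ratio was 12.97, 9.34 and 9.98 in WT and 17.0, 19.6 and 24.6 in mutants. These copies thus both gained on *hbbe1.1* in assigned reads, in each mutant against each WT sample. Since *hbbe1.1* had the smallest fold difference of the 5, the mean ratios of the other 4 to it were bound to rise. The lack of overlap restates the contrast that brought the transcripts into the lists and is not read further. For *hbbe2* the ratio was 9.58, 5.24 and 10.8 in WT and 13.5, 12.7 and 13.9 in mutants, and for *hbae1* it was 1.73, 1.51 and 2.39 in WT and 2.78, 2.90 and 2.74 in mutants. The mutants were close together for both of the latter, with means of 13.4 ± 0.608 and 2.81 ± 0.0845 (SD, n = 3). Their WT samples were more spread, at 8.55 ± 2.93 and 1.88 ± 0.460. For *hbae1*, counting error alone is 7.10% of the level in mutants and 14.7% in WT, so its closeness in mutants is not read further. Mutant replicate 3 had the lowest level of all 5 transcripts among the mutants, and also the highest ratio to *hbbe1.1* for 3 of the other 4.

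**Figure D5:**
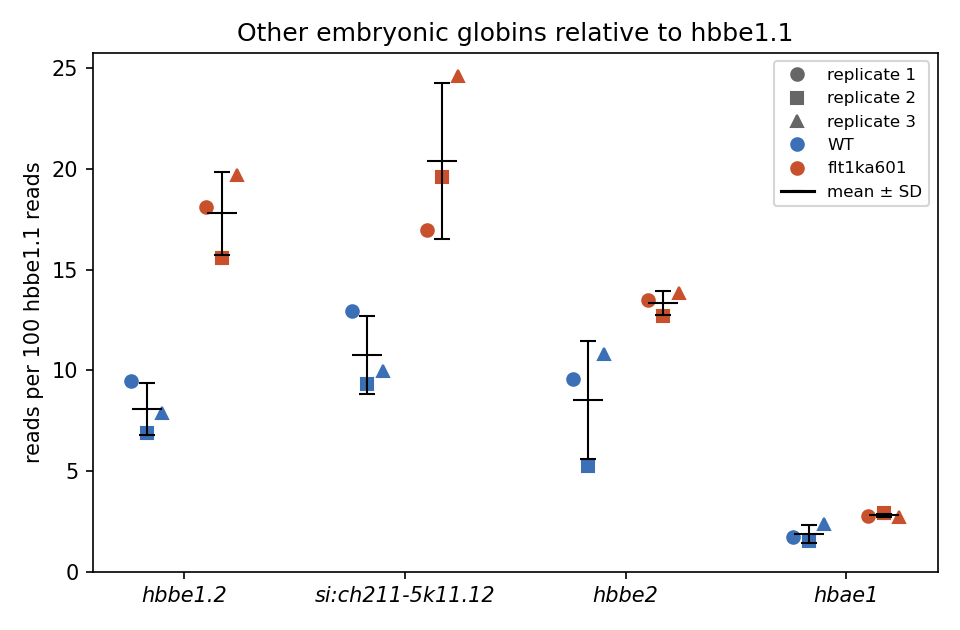
Reads on each of the other 4 embryonic globin transcripts per 100 reads on *hbbe1.1* in the same sample, for WT (blue) and flt1ka601 (red), with mean and SD in black. The mutants lie above WT for all 4, which follows the smaller fold difference of *hbbe1.1* and is not a separate result. The margin on this axis is widest for *hbbe1.2* (means of 8.08 and 17.8) and narrowest for *hbae1* (1.88 and 2.81).

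Alpha and beta chains were compared through the share of *hbae1* in the reads on the 5 transcripts. Reads were not divided by transcript length and reads shared between copies were not counted, so the share is one of assigned reads and not of chains. It was 1.29% in WT replicate 1 (95% Wilson interval 0.987% to 1.69%), 1.23% in replicate 2 (0.896% to 1.68%) and 1.83% in replicate 3 (1.40% to 2.38%). In the mutants it was 1.84% (1.64% to 2.06%), 1.92% (1.68% to 2.20%) and 1.70% (1.45% to 1.998%). The genotypes overlapped, since WT replicate 3 fell inside the range of the mutants. The means were 1.45 ± 0.328% and 1.82 ± 0.111% (SD, n = 3 each), and the difference was near the spread between the WT samples. There were 76.4, 80.5 and 53.8 beta reads for each *hbae1* read in WT and 53.5, 51.0 and 57.7 in mutants. These ratios set *hbae1* alone against all the followed beta transcripts. Further alpha genes, such as *hbae3*, *hbae4* and *hbae5*, were not counted, so the ratios are not a balance of all embryonic alpha and beta reads.

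A second alpha chain was found in the deposited tables under a clone name. RefSeq gives si:ch211-5k11.2 as a synonym of both *hbae1.2* and *hbae1.3*, and the Ensembl gene of the listed transcript, ENSDART00000101734, carries the symbol *hbae1.2*. It had 44, 38 and 12 reads in WT and 263, 213 and 179 in mutants, or 3.38, 3.33 and 1.14 CPM against 18.8, 19.2 and 15.6. WT replicate 3 was low, and the genotypes did not overlap. Its log2 fold change was 2.74. With these reads added to the alpha side, a choice made after the values were seen, the alpha share was 2.36%, 2.43% and 2.23% in WT and 3.49%, 3.80% and 3.70% in mutants, and the genotypes no longer overlapped. The comparison of alpha with beta reads therefore depended on which alpha transcripts were counted. The genotype difference itself brought si:ch211-5k11.2 into the lists, which favours a higher alpha share in mutants. Nothing is read from the lack of overlap.

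The measured spread between samples of a genotype was above the value that counting alone gives for each of the 5 transcripts in both genotypes. In WT, *hbbe1.1* had a coefficient of variation of 4.92%, where counting alone gives 1.98%. The other 4 transcripts varied by 20.0% to 33.4% in WT, where counting gives 6.15% to 14.7%. For *hbae1* in WT the values were 20.6% and 14.7%. With 3 samples per genotype, whether such a gap exceeds counting error was not tested. In the mutants, si:ch211-5k11.12 varied by 5.23% and the other 4 by 19.1% to 22.8%. edgeR's estimate of the biological coefficient of variation was 0.116 to 0.187 for the 5, above the trend fitted to transcripts of like abundance for all 5. Its median was 0.136 beside 0.101 over all tested transcripts, which are not matched for abundance. The share of all tested transcripts above the trend was not computed, and the 5 were measured in the same samples, so nothing further is read from it. Some samples deviated in the same direction across the transcripts and others did not. Mutant replicate 1 was above the mutant mean for 5 of 5 on the log2 scale and mutant replicate 3 below it for 5 of 5, by a median of 0.26 and -0.32. WT replicate 2 was below the WT mean for 4 of 5, by a median of -0.22, and *hbbe2* was its lowest, at -0.63. WT replicate 1 was above it for 4 of 5, by a median of 0.30, and WT replicate 3 was split, above for 2 and below for 3. These are deviations of TMM-scaled values, and the low TMM factor of WT replicate 1 (0.874) raises all of its values. In plain shares of counted reads, the summed transcripts stood at 0.0269%, 0.0276% and 0.0269% in WT replicates 1, 2 and 3. With the 5 most counted transcripts of each sample left out of the denominator, the shares were 0.0427%, 0.0384% and 0.0378%.

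Genes that act with the globins were sought by name in the same deposited tables, where only transcripts past the authors' thresholds have names and an unchanged gene is never named. The search was by exact symbol, so a gene listed under an older or clone name would be missed. Names were given for only 424 of the 54869 transcripts in the count table, so nothing is read from how many genes of a list were found. Of 30 genes of haem synthesis and iron handling, 1 was named there, *alas2*, the enzyme of the first and rate-limiting step of haem synthesis in red cells. It had 210, 127 and 133 reads in WT and 514, 305 and 329 in mutants, or 16.2, 11.13 and 12.6 CPM against 36.8, 27.4 and 28.7. The genotypes did not overlap, the means were 13.3 ± 2.58 and 31.0 ± 5.08 CPM (SD, n = 3 each), and the log2 fold change was 1.22. In TMM-scaled CPM, WT replicate 1 was the highest WT sample and mutant replicate 1 the highest mutant. This held for *hbbe1.1* and *hbbe1.2* as well but not for the other 3 globins. For *hbbe1.1* in WT this order depends on the scaling, where replicate 1 had a low TMM factor (0.874). As a plain share of counted reads, *hbbe1.1* was not highest in that sample. In WT, *hbbe2* and *hbae1* were highest in replicate 3, and si:ch211-5k11.12 was highest in mutant replicate 2 among the mutants. Of 19 regulators of red cell and blood formation, 1 was named, *klf3*, a Krüppel-like transcription factor. It stood on few reads, 10, 22 and 18 in WT and 59, 49 and 40 in mutants, with a log2 fold change of 1.48 and without overlap in CPM. Since a listed change is what gave these genes a name, their differences are descriptions as well. Of 33 genes of the red cell membrane and cytosol, 24 markers of other blood cells and 5 other members of the globin superfamily, 0 were found under the symbols searched. Their counts, among them those of *slc4a1a* and of the white cell markers *mpx* and *lyz*, were not analysed here, and any part of other blood cells in the globin difference was not tested.

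The transcripts most like the summed globins across the 6 samples were picked by the root mean square difference between log2 CPM profiles, each centred on its own mean. The log2 CPM of each transcript included a small count added by edgeR, which draws low counts together, and that of the sum did not. Among transcripts with a name, the nearest were si:dkey-256i11.6 (0.126), *ctdp1* (0.15), si:dkey-106c17.2 (0.18), wu:fj08f03 (0.182) and *h2afx* (0.188), which also held the first 5 ranks among all 21024 tested transcripts outside the globins followed. The first had only 4, 3 and 3 reads in WT and 25, 15 and 15 in mutants, and *ctdp1*, which encodes a phosphatase of RNA polymerase, had 6, 4 and 5 against 27, 16 and 15. Mean CPM of si:dkey-256i11.6 was 0.285 in WT and 1.48 in mutants, against 285 and 945 for the sum. Its first rank thus rests in part on the added count and not on a like fold difference. The better counted were wu:fj08f03, with 144, 101 and 88 reads in WT and 472, 321 and 206 in mutants, and *h2afx*, a histone variant gene, with 258, 195 and 210 against 732, 628 and 548. By the same measure *alas2* had a difference of 0.297 and ranked 28 of 21024, and *klf3* had 0.453 and ranked 222. The alpha globin si:ch211-5k11.2 had 0.724 and ranked 2930. Most reads of the sum lay on *hbbe1.1*, which had 0.137 itself. The other followed globins had 0.237 (*hbae1*), 0.363 (*hbbe2*), 0.371 (si:ch211-5k11.12) and 0.456 (*hbbe1.2*). Likeness to the sum is thus mainly likeness to *hbbe1.1*. The difference between genotypes enters this measure strongly, but a similar fold difference did not by itself give a small value. At log2 fold changes of 1.51 and 1.48, wu:fj08f03 had a difference of 0.182 and *klf3* one of 0.453. In WT, *klf3* had only 10 to 22 reads and wu:fj08f03 had 88 to 144. The part of counting error in this gap was not tested.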

How the data were processed

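The authors mapped reads with Bowtie2 and TopHat2 and counted them with HTSeq on each Ensembl transcript; these deposited counts are not normalized. The genome is GRCz10 in the paper and Zv9 in the submitters' processing notes (TopHat2 2.0.10, Bowtie2 2.1.0, HTSeq 0.6.1). The labels give 2 technical replicates per sample, and the table holds 1 column for each. The authors' deposited DESeq table gives a signal per genotype (counts divided by size factors) and their deposited Cuffdiff table an FPKM per genotype. Their fold changes and tests were not used. The column labels of the count table are offset from its values, and the assumed order was checked by recomputing the authors' deposited genotype means, which agreed within 0.01% for 359 of 359 transcripts.

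The counts were tested with edgeR 4.0.16 in R 4.3.3 after filterByExpr (minimum count 10, total 15; 21029 transcripts kept) and TMM scaling, by the quasi-likelihood test on genotype with all 6 samples, Benjamini-Hochberg adjusted. Depth was 10655504 to 14936523 counted reads per sample. The test was tested on simulated data. The alternatives were other scalings, filters, DESeq2 1.42.0, a block for the replicate number, and fits that dropped 1 sample each. The members and gene lists were chosen with earlier results of these data known. The transcripts named were the 5 globins, list genes named in the deposited tables and the 5 named transcripts nearest in profile. The closing section gives what the alternatives changed. Sequences and transcript lengths were not used here.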

Additional observations from a re-analysis of the deposited data

How the results depend on the processing

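The log2 fold changes of the 5 globins were compared in 60 alternative values, and 0 changed direction. All 60 moved by less than the SD between replicates pooled over both genotypes (0.22 to 0.44 on the log2 scale). A filter of at least 10 counts in every sample is not among the 60, and gave a median of 2.13 for the 5 globins. Against the smaller SD of a single genotype, 7 of the 60 moved further, 3 for *hbbe1.1* (SD 0.071 in WT, largest move 0.16) and 4 for si:ch211-5k11.12 (SD 0.076 in mutants, largest move 0.20). The median of the 5 was 2.12, with a range of 1.95 to 2.26 as each sample was left out, 2.14 with the replicate number as a block and 2.26 with scaling by total counts. That scaling also moved the median of all tested transcripts from -0.0051 to 0.12, so relative to it the globins stood at 2.14, against 2.13 with TMM. It gave 2202 transcripts called at an adjusted p under 0.05, 83.1% of them higher in mutants, against 2052 and 55.8% with TMM. With the block 2352 transcripts were called. Samples with the same replicate number had deviations correlated at 0.080, 0.022 and 0.064, too little to treat as pairs, although each sample correlated best with its own number, a hint from the data and not the design. The count of calls ran from 717 to 2789 with a sample left out. It was 1094 without WT replicate 2 and 836, 717 and 894 without mutant replicates 1, 2 and 3.

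The share of reads on the 5 globin transcripts depends on its denominator, and its numerator leaves out reads shared between copies. It was 0.0165% in WT and 0.0575% in mutants with ambiguous reads added to the denominator, 0.00907% and 0.0310% with reads on no feature added as well, and 0.0396% and 0.136% without the 5 most counted transcripts of each sample, while the ratio between genotypes stayed between 3.42 and 3.62. With si:ch211-5k11.2 counted as an alpha chain, an alternative chosen after the data were seen, the alpha share moved from 1.45% to 2.34% in WT and from 1.82% to 3.66% in mutants. The genotype difference brought that transcript into the lists, so the larger move in mutants is not read as a result. Weighting by coding length was not run, since no lengths were at hand, and leaving out the transcript of fewest reads would have removed the alpha side. Depth limits *hbae1* most, at 38 to 53 reads per WT sample.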
